A study of Mus musculus with 8 samples.

Results

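The HoxA cluster is a run of homeobox genes on mouse chromosome 6, and 9 of its genes are described here in embryonic stem cells (ESC) and in neural progenitor cells (NPC) derived from them. They are the long noncoding RNA gene Hotairm1 and the coding genes Hoxa2, Hoxa3, Hoxa4, Hoxa5, Hoxa6, Hoxa7, Hoxa9 and Hoxa10, chosen by gene symbol out of 24318 symbols in the expression tables and ordered by the positions given there. All 9 symbols were found, each with 1 entry. Poly(A) RNA was sequenced from mouse E14 ESC and from NPC, of 2 genotypes, wild type and Wdr68 knockout as labelled, with 2 libraries in each of the 4 groups. WDR68, a protein of WD40 repeats whose gene the tables call Dcaf7, is named in the series title as needed for the gene-activating role of the Polycomb complex PRC1-AUTS2. The ESC medium held serum, LIF and inhibitors of the kinases Mek and GSK3, and the cells grew on embryonic fibroblast feeders or on gelatin. For NPC, cells taken off the feeders formed embryoid bodies in hanging drops of 500 cells for 2 days, stayed in suspension for 2 more days and then received retinoic acid for 4 days. How the knockout was made and whether it is 1 clone are not given in the sources used here.

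Hox genes encode transcription factors that set the position of cells along the body axis, and within a cluster the order of the genes matches the order in which they come on in the embryo, from the head end to the tail end. Before that, in ESC, the clusters are held silent by Polycomb complexes, and retinoic acid turns on first the genes at the anterior end, where control regions hold binding sites for its receptors. Hotairm1 is transcribed from the anterior end of the cluster, next to Hoxa2, on the strand opposite to the Hox genes, and is known as an RNA that responds to retinoic acid. In the developing hindbrain and spinal cord, Hoxa2 to Hoxa5 mark hindbrain and neck levels, and Hoxa6 to Hoxa10 mark levels further down the trunk.

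In the mm9 coordinates of the tables, the 9 genes lie on chromosome 6 from 52108523 to 52190853, a span of 82.3 kb. Hotairm1 (52108523 to 52112019) reads towards the Hox genes, which are all on the other strand. Hoxa2 follows at 52112416 to 52114830, Hoxa4 at 52139686 to 52141702, Hoxa5 at 52151753 to 52154586 and Hoxa6 at 52156364 to 52158623. Hoxa7 lies at 52165623 to 52168572, Hoxa9 at 52173096 to 52177369 and Hoxa10, with 2 start sites, at 52181196 to 52190853. The Hoxa3 entry (52119061 to 52163066) starts beyond Hoxa6 and runs across Hoxa4, Hoxa5 and Hoxa6, so fragments in these 4 genes were divided between overlapping models by the authors' estimate. The start sites of Hoxa5 and Hoxa6 are 4.04 kb apart, and it is between these 2 genes that the NPC groups part, as the levels below show.

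The sequences before the start sites of Hoxa5, Hoxa6, Hoxa7 and Hoxa9 are printed because they stand on either side of that point. They come from RefSeq windows of GRCm38.p6, in which 7 of the 9 genes were matched (not Hotairm1 and Hoxa4), and read 5′ to 3′ on the minus strand. The Hoxa5 stretch is chr6:52204588-52204837 and the Hoxa9 stretch chr6:52227371-52227620, each the whole 250 bases before the start site. The Hoxa6 stretch, chr6:52208723-52208922, and the Hoxa7 stretch, chr6:52218712-52218823, are cut to the bases outside annotated untranslated exons. Capitals mark TTTATG, a motif bound by CDX factors, which drive Hox genes in the trunk.
Hoxa5: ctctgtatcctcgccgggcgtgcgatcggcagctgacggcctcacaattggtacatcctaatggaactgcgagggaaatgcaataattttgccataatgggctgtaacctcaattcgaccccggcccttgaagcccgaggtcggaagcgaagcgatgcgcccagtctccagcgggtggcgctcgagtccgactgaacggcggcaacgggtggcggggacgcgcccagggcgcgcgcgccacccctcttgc
Hoxa6: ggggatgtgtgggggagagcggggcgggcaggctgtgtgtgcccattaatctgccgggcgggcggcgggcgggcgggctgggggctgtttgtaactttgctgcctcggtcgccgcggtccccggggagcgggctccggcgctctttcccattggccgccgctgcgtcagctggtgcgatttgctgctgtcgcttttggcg
Hoxa7: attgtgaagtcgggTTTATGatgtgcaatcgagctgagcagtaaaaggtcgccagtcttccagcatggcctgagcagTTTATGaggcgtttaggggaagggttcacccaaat
Hoxa9: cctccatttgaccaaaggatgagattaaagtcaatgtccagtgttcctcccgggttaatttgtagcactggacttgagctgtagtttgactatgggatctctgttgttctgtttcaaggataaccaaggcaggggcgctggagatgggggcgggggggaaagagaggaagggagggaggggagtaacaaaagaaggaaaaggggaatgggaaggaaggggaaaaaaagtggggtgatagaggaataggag
Over the whole 250 bases, Hoxa5 held 28 CG dinucleotides and Hoxa6 held 24, both above the upper quartile of 16 over all 32841 RefSeq windows of that length. Hoxa7 held 7, near the median of 6, and Hoxa9 held 3, near the lower quartile of 2. For Hoxa6 and Hoxa7 these counts include the annotated untranslated bases that were cut from the printed stretches. TTTATG was searched on both strands, is found in 10.8% of all windows and occurred 2 times before Hoxa7 and in no other window of these genes. The half-site of nuclear receptors (AGGTCA, in 14.03% of windows) was in none of the 8 windows of the 7 genes. The motif of HOX-PBX pairs (TGATTNAT, in 2.83%) was in the Hoxa2 window alone, the MEIS motif (TGACAG, in 15.9%) was in those of Hoxa2 and Hoxa3, and a TATA box (TATAAA, in 12.4%) was in 1 of the 2 Hoxa10 windows.

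The values are FPKM, fragments scaled to transcript length and to the mapped fragments of the library, which allows a rough comparison of levels between genes. That comparison is less sure for Hotairm1, where few fragments are scaled over a short length. It is also less sure for Hoxa3, Hoxa4, Hoxa5 and Hoxa6, where the Hoxa3 model overlaps the other genes. The error intervals in the tables imply 5996677 to 7942644 fragments per library. Dcaf7, the targeted gene, stood at 12.4 and 14.2 FPKM in wild-type and at 2.80 and 2.26 FPKM in knockout ESC, and at 27.2 and 29.6 FPKM in wild-type and at 8.36 and 8.99 FPKM in knockout NPC. It was lower in the knockout at both stages (limma adjusted p = 0.00109 in ESC and 1.26e-04 in NPC). The 8 ESC markers summed to 3645 to 4219 FPKM in the ESC and to 7.43 to 14.9 FPKM in the NPC libraries. The 10 neural progenitor markers summed to 229.8 and 231 FPKM in wild-type NPC but to 38.8 and 38.9 FPKM in knockout NPC, where Olig2 was listed at 0 and Sox2 stood at 1.81 ± 0.934 FPKM (SD, n = 2) and Pax6 at 2.69 ± 0.587 FPKM, whereas Nes stood at 23.9 ± 2.12 FPKM. Of the 9 markers tested, 8 were lower (12.7% of all genes were). Hes5 and Dbx1 reached 1 FPKM only in wild-type NPC, where they are high, and add no support to this count. By its sums, the list goes against the cell type given for the knockout NPC libraries, which are called NPC here as labelled. The 2 libraries of a group correlated across genes at r = 0.9496 to 0.962, and the labels do not say that they came from separate cultures, so each p-value reflects nothing beyond the library-to-library spread, and that spread may be technical.

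In ESC, the 8 coding genes were at or near 0, between 0 and 0.852 FPKM in all 4 libraries, and rested on 0 to 16 fragments each. Hoxa7 had the highest group means, overlapping the next gene in both genotypes, at 0.733 and 0.403 FPKM in wild-type and at 0.852 and 0.598 FPKM in knockout ESC. Hotairm1 was listed at 1.76 and 1.66 FPKM in wild-type and at 3.07 and 0 FPKM in knockout ESC. These are 1, 1, 2 and 0 fragments, since the RNA is counted over a short length and 1 fragment was worth 1.36 to 1.81 FPKM in the libraries that had any. Differences between the genotypes were not detectable at this depth. The test, limma on log2(FPKM + 1) with p adjusted over all 13318 genes that reached 1 FPKM in at least 2 libraries, called none of the 8 genes that could be tested (0.248% of all genes were called). None had an unadjusted p under 0.05 either, the smallest being 0.251 for Hoxa9, while 1686 of all genes did. Hotairm1 would be called without knockout replicate 1, against the lone library at 0 (log2 difference -1.44, adjusted p = 0.0368).

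**Figure D1:**
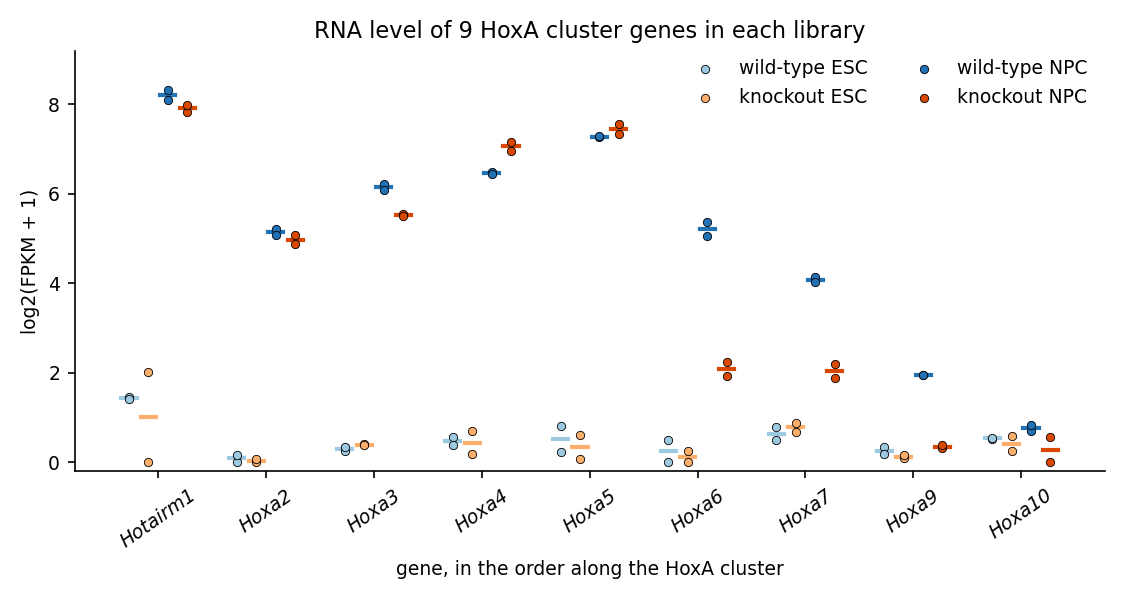
RNA level of the 9 genes in each library, as log2(FPKM + 1), in cluster order; points are libraries, bars are group means, and colours mark genotype and stage. The knockout NPC points lie near the wild-type NPC points from Hotairm1 to Hoxa5 and far below them at Hoxa6, Hoxa7 and Hoxa9.

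In wild-type NPC, 8 of the 9 genes were far above their ESC level, and the levels traced a hill along the cluster with its top at Hoxa5. Hoxa2, a gene of hindbrain and cranial neural crest patterning, stood at 34.5 ± 2.01 FPKM (SD, n = 2) and Hoxa3, needed for neck organs such as thymus and parathyroid, at 70.4 ± 4.22 FPKM. Hoxa4 followed with 87.5 ± 2.34 FPKM and Hoxa5, which patterns the neck and the lung, with 155 ± 2.29 FPKM. Beyond it the level fell to 36.3 ± 5.89 FPKM for Hoxa6, 15.9 ± 0.963 FPKM for Hoxa7, 2.86 ± 0.0209 FPKM for Hoxa9 and 0.703 ± 0.122 FPKM for Hoxa10. Hotairm1 was the highest of all at 296 ± 35.1 FPKM, although these levels rest on only 232 and 150 fragments, against 3185 and 2385 for Hoxa5. Of neighbours in the order of the levels, the ranges of the 2 libraries overlapped for Hoxa6 and Hoxa2 alone.

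All 8 genes tested were higher in wild-type NPC than in ESC, by 1.69 ± 0.11 (log2 ± SE) for Hoxa9 up to 6.77 ± 0.55 for Hotairm1, with adjusted p of at most 2.74e-05 (limma), where 72.6% of all genes were called, 41.6% higher and 31.1% lower. Apart from Hotairm1, which its 1 fragment per wild-type ESC library already lifts past 1 FPKM, these genes passed the filter on low values only through their NPC level and so had to differ. Hoxa10 did not pass it, and at 0.616 and 0.789 FPKM in wild-type NPC against 0.436 and 0.465 FPKM in ESC it remained near its ESC level. In the knockout, 7 of the 8 were higher in NPC than in ESC (70.3% of all genes were called, 41.6% higher and 28.8% lower), among them Hoxa5 by 7.11 ± 0.23, Hoxa4 by 6.62 ± 0.18, Hoxa6 by 1.96 ± 0.22 and Hoxa7 by 1.27 ± 0.17. Hoxa9 differed by 0.23 ± 0.11 there (adjusted p = 0.105), and by 0.99 with a pseudocount of 0.1 (adjusted p = 0.0295), with 0.241 and 0.311 FPKM in knockout NPC above 0.0652 and 0.115 FPKM in knockout ESC. The median of all genes lay at 0.15 in this comparison in wild type and at 0.17 in the knockout, and at 0.02 and 0.01 with median-ratio scaling, shifts that are small beside these changes.

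Between knockout and wild-type NPC, the cluster divided between Hoxa5 and Hoxa6. Hoxa6, Hoxa7 and Hoxa9 fell 5.04-fold to 11.1-fold, while Hotairm1, Hoxa2 and Hoxa5 differed by 1.23-fold or less and did not pass the test, Hoxa3 fell 1.56-fold and Hoxa4 stood 1.53-fold higher. Of the 8 genes tested, 5 were called, against 27.4% of all genes: 4 were lower (12.7% of all genes were), Hoxa9 among them, which passed the filter only through wild-type NPC, and 1 was higher (14.7% of all genes were). Their median log2 change was -0.46, against 0.05 over all genes. These are bulk samples, in which fewer cells of a type and less RNA per cell cannot be told apart.

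Hotairm1, the noncoding RNA at the anterior end, stood at 321 and 271 FPKM in wild-type NPC and at 228 and 252 FPKM in knockout NPC. Both knockout libraries were below both wild-type libraries, by a narrow margin. The difference was -0.30 ± 0.55 (limma adjusted p = 0.744), and its wide error comes from the ESC libraries, where the gene had 0 to 2 fragments and which share the estimate of the spread. With each library left out in turn, adjusted p ran from 0.0864 to 0.9, and the gene was not called in any of these 8 fits.

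Hoxa2 was at 35.9 and 33.1 FPKM in wild-type and at 32.7 and 28.5 FPKM in knockout NPC, and the groups again did not overlap but came close (-0.17 ± 0.12, adjusted p = 0.365 by limma). Hoxa3 was at 73.4 and 67.4 FPKM in wild-type and at 46.0 and 44.3 FPKM in knockout NPC. The Hoxa3 groups were well apart, the mean was 1.56-fold lower in the knockout, and the change passed the test (-0.63 ± 0.10, adjusted p = 0.00333).

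Hoxa4 went the other way, with 89.1 and 85.8 FPKM in wild-type and 143 and 124 FPKM in knockout NPC, a mean 1.53-fold higher in the knockout. Its call (0.60 ± 0.18, limma adjusted p = 0.0439) is the least secure of the cluster. It was lost in 10 of 16 alternatives, in which adjusted p ranged from 0.0119 to 0.423. These included median-ratio scaling (0.0672), quantile normalization (0.0797) and a pseudocount of 0.1 (0.423). It was also lost without wild-type NPC replicate 1 (0.129) or 2 (0.169), knockout NPC replicate 1 (0.205) or 2 (0.0924), and wild-type ESC replicate 1 (0.0563) or 2 (0.0558). Hoxa5, the highest coding gene, was at 153 and 156 FPKM in wild-type and at 188 and 162 FPKM in knockout NPC, and did not pass the test (0.17 ± 0.23, adjusted p = 0.641).

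Hoxa6, the neighbour of Hoxa5, was at 40.5 and 32.1 FPKM in wild-type and at 2.78 and 3.74 FPKM in knockout NPC. The lowest wild-type library was 8.58-fold above the highest knockout library, and the means differed 11.1-fold (-3.13 ± 0.22 on the log2 scale of FPKM + 1, limma adjusted p = 1.04e-04). Hoxa7, like Hoxa6 a gene of thoracic patterning, was at 16.6 and 15.2 FPKM in wild-type and at 3.60 and 2.72 FPKM in knockout NPC, with means 5.04-fold apart (-2.03 ± 0.17, adjusted p = 2.16e-04). Both genes remained called in each alternative, with adjusted p of at most 0.0217 and 0.00808.

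Hoxa9, known from blood stem cells and leukaemia as well as from the posterior trunk, was low even in wild-type NPC, at 2.88 and 2.85 FPKM, and was at 0.241 and 0.311 FPKM in knockout NPC. The means differed 10.4-fold, the log2(FPKM + 1) scale shows -1.60 ± 0.11 because the level is low (limma adjusted p = 1.04e-04), and the knockout values rest on 6 and 9 fragments. Wild-type ESC had 0.262 and 0.141 FPKM. The gene reached 1 FPKM only in wild-type NPC, so it entered the test through the group in which it is high, and the call made with the filter is no support by itself. With no filter its adjusted p was 2.4e-04 (limma). Without wild-type NPC replicate 1 or 2 the gene does not reach the filter and was not tested, and 3 of 7 genes were called in either fit, in place of 5 of 8. Hoxa10, a gene of lumbar levels and of the uterus, was at 0.616 and 0.789 FPKM in wild-type and at 0.484 and 0 FPKM in knockout NPC. With no filter its difference was -0.48 ± 0.20 (adjusted p = 0.172).

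**Figure D2:**
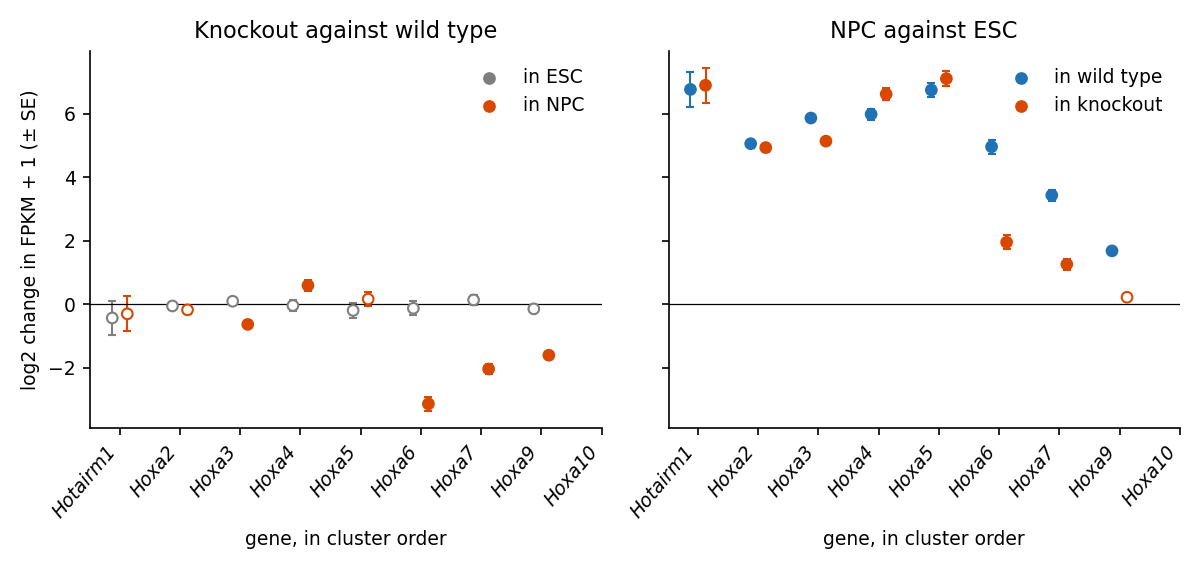
Log2 change in FPKM + 1 with its SE for each gene in cluster order: knockout against wild type in ESC (grey) and NPC (orange) on the left, NPC against ESC in wild type (blue) and knockout (orange) on the right. Filled points have adjusted p under 0.05; Hoxa10 was not tested; the fall in knockout NPC starts at Hoxa6, with -3.13.

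The makeup of HoxA coding RNA differed between the NPC groups while its amount did not separate them. The 8 coding genes summed to 412 and 394 FPKM in wild-type and to 416 and 365 FPKM in knockout NPC. Hoxa6 to Hoxa10 made up 14.7% and 13.0% of that sum in wild-type and 1.71% and 1.86% in knockout NPC, and Hoxa4 with Hoxa5 made up 58.8% and 61.5% against 79.4% and 78.2%. Hoxa2 with Hoxa3 made up 26.5% and 25.5% in wild-type and 18.9% and 19.9% in knockout NPC.

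**Figure D3:**
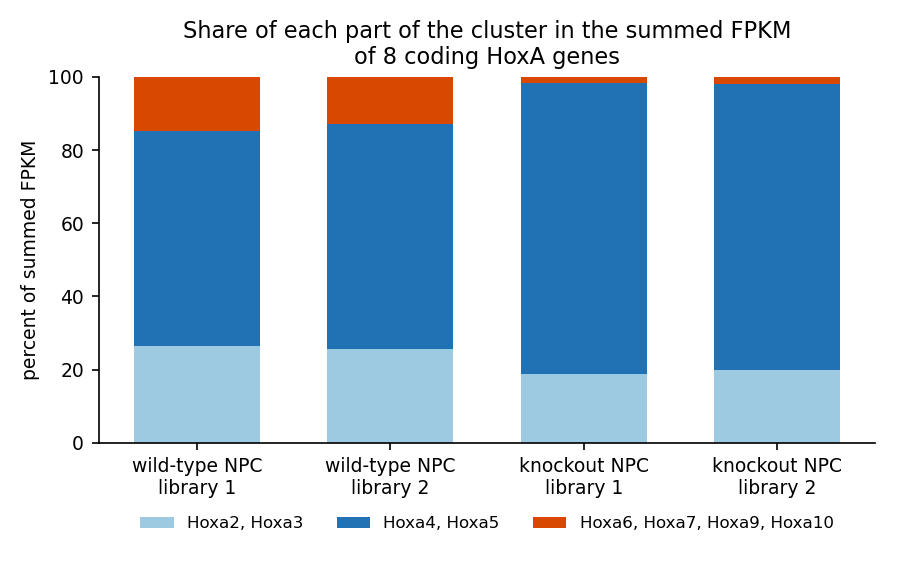
Share of Hoxa2 and Hoxa3, of Hoxa4 and Hoxa5, and of Hoxa6, Hoxa7, Hoxa9 and Hoxa10 in the summed FPKM of the 8 coding genes, in percent, 1 bar per NPC library. The segment of Hoxa6 to Hoxa10 shrinks from 14.7% and 13.0% to 1.71% and 1.86%.

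The step between Hoxa5 and its neighbour can be read within each library, where scaling and depth are shared. Hoxa5 stood at 3.78 and 4.86 times the FPKM of Hoxa6 in wild-type NPC and at 67.4 and 43.1 times in knockout NPC. The mean log2(FPKM + 1) of Hoxa2 to Hoxa5 exceeded that of Hoxa6 to Hoxa10 by 3.26 and 3.27 in wild-type and by 5.09 and 5.04 in knockout NPC. That gap was 1.80 wider in the knockout, and 2.61 wider with a pseudocount of 0.1. It restates the pattern of the single genes, and an exact permutation test of 2 libraries against 2 cannot go below the two-sided p of 0.333 that it gave. In the order of levels, Hoxa6 stood above Hoxa2 by mean in wild-type NPC, with overlapping libraries, and below it without overlap in knockout NPC, where Hoxa6 overlapped with Hoxa7 and Hoxa9 with Hoxa10.

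The difference between the knockout effects at the 2 stages was tested directly. It was called for 4 of the 8 genes, each lower in NPC, where 16.8% of all genes were called, 8.39% lower and 8.41% higher. These were Hoxa6 (-3.01 ± 0.31, limma adjusted p = 0.00127), Hoxa7 (-2.17 ± 0.24, 0.00162), Hoxa9 (-1.46 ± 0.16, 0.00156) and Hoxa3 (-0.73 ± 0.14, 0.0131). The coding genes were so low in ESC that this scale leaves little room for a knockout effect there. Their values therefore largely restate the change in NPC. Hoxa9 also passed the filter only through wild-type NPC, so its call is no support by itself. For Hoxa4 the difference between stages was 0.63 ± 0.25 (adjusted p = 0.134). The call of Hoxa3 was lost without wild-type NPC replicate 1 (0.0558) or knockout NPC replicate 2 (0.0579), and that of Hoxa6 with a pseudocount of 0.1 (0.129). Without wild-type NPC replicate 1, 2 of 7 genes were called. Without knockout ESC replicate 1, 6 genes were called, with Hotairm1 (1.14, adjusted p = 0.0132) and Hoxa4 (0.90, adjusted p = 0.0302) added, and without knockout ESC replicate 2 Hotairm1 had the opposite sign (-0.88, adjusted p = 0.0263), so that its value rests on which of the libraries with 2 and with 0 fragments is kept.

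Beyond the Hox genes, Skap2, which flanks the anterior end of the cluster and encodes a signalling adaptor, was at 105 ± 13.6 FPKM in wild-type and 52.0 ± 4.05 FPKM in knockout NPC (-0.996 ± 0.11, limma adjusted p = 6.66e-04), and Hibadh at the other flank did not pass (0.20 ± 0.09, adjusted p = 0.132). Among listed genes of the locus that did not pass the filter, Hoxa13 at the far end of the cluster was at 0 FPKM in each of the wild-type NPC tables. It was at 0.546 and 1.82 FPKM in knockout NPC, values that rest on 7 and 25 fragments. When no filter was set it was higher there (1.06 ± 0.26, limma adjusted p = 0.0397), unlike Hoxa6, Hoxa7 and Hoxa9. Its difference between stages did not pass in that fit (adjusted p = 0.137). Evx1 was at 0.213 ± 0.0464 and 0.939 ± 0.418 FPKM, Hoxa11, Hoxa11os and Hottip were below 1 FPKM, and Mir196b was listed at 0.

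The antisense genes Hoxaas2 and Hoxaas3 were added after their values were seen. Hoxaas3, at 52151123 to 52163596, overlaps Hoxa5, Hoxa6 and Hoxa3 and was at 51.3 ± 4.53 FPKM in wild-type and 14.8 ± 0.243 FPKM in knockout NPC (-1.73 ± 0.12, limma adjusted p = 1.08e-04). Hoxaas2, next to the end of Hoxa3, was at 16.7 ± 0.253 and 11.03 ± 0.607 FPKM (-0.56 ± 0.11, adjusted p = 0.00863). Per the labels the libraries were directional, but whether the estimates used the strand is not given in the sources used here. Fragments of these genes and of the coding genes that they overlap may therefore have been exchanged.

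Paralogs of the 9 genes in the other Hox clusters, which hold genes of the same position number, gave the following picture for knockout against wild-type NPC. Of all genes tested, 27.4% were called in this contrast, 12.7% lower and 14.7% higher. In HoxB, all 4 tested genes of groups 6 to 10 were lower, with a median of -2.29, led by Hoxb9 (-3.75 ± 0.26), Hoxb7 (-2.34 ± 0.22) and Hoxb8 (-2.24 ± 0.13), and 3 of 4 in groups 2 to 5 were lower, with a median of -0.70. In HoxC, all 3 tested genes of groups 6 to 10 were lower (median -1.28, with Hoxc6 at -1.99 ± 0.14 and Hoxc9 at -1.28 ± 0.17). Hoxc9, whose value is that median, passed the filter only through wild-type NPC, so its call is no support by itself. In groups 2 to 5 of HoxC, Hoxc4 was lower (-1.01 ± 0.09) and Hoxc5, named after its value was seen, higher (0.43 ± 0.10). HoxD had the reverse order: both tested genes of groups 2 to 5 were lower, Hoxd4 (-2.68 ± 0.10) and Hoxd3 (-2.67 ± 0.21), and of groups 6 to 10 Hoxd8 was lower (-0.73 ± 0.16) and the other one did not pass. In HoxA itself the medians were 0.00 over Hoxa2 to Hoxa5 and -2.03 over the 3 tested genes of groups 6 to 10. The latter include Hoxa9, which passed the filter only through wild-type NPC. Differences between clusters were not tested.

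**Figure D4:**
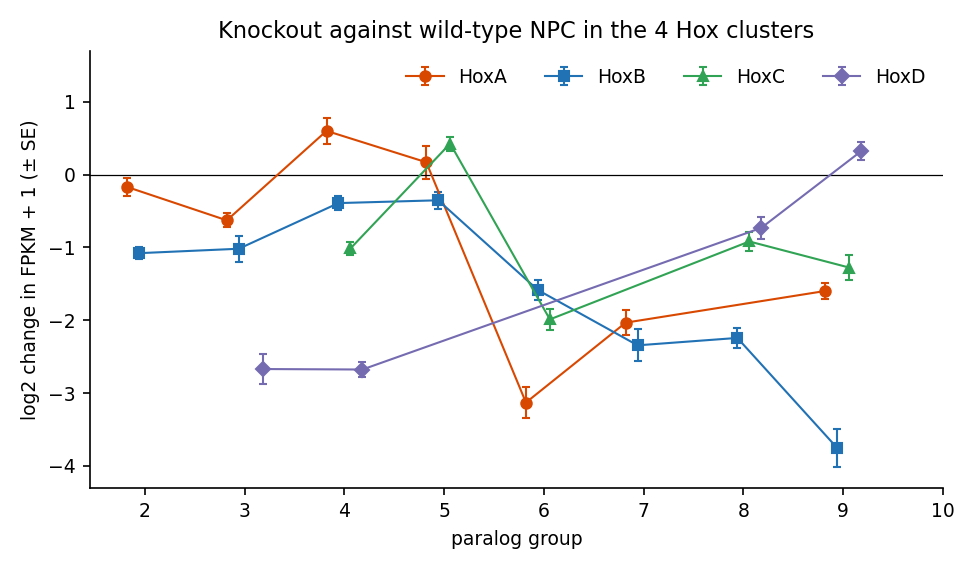
Log2 change in FPKM + 1 (± SE) between knockout and wild-type NPC by paralog group for the tested genes of the 4 Hox clusters; lines join the genes of a cluster and carry no value between points. HoxA drops between group 5 and group 6, HoxB and HoxC are also lowest beyond group 5, and HoxD is lowest at groups 3 and 4.

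Of 18 listed regulators of Hox genes, 13 were tested between the NPC groups, of which 5 were called, 4 lower and 1 higher, against 27.4% of all genes, 12.7% lower and 14.7% higher. Aldh1a2, which makes retinoic acid, was at 4.35 ± 0.582 FPKM in wild-type and at 16.5 ± 1.54 FPKM in knockout NPC (1.71 ± 0.16, limma adjusted p = 4.22e-04). Cyp26a1, which breaks retinoic acid down and is itself induced by it, was at 60.7 ± 4.68 and 14.4 ± 2.91 FPKM (-2.01 ± 0.17, adjusted p = 2.29e-04). The receptor gene Rara (-0.63 ± 0.08) and Gdf11 (-0.61 ± 0.14), a signal that promotes posterior Hox genes, were also lower. Of the 9 TALE genes, which encode the PBX, MEIS and PKNOX partners that bind DNA with HOX proteins, Pbx3 (-1.10 ± 0.16) and Pbx4 (-0.89 ± 0.16) were lower and the other 7 did not pass. Their median was 0.01, close to that of all genes.

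Markers of other cell types moved with the same contrast, and their part in the HoxA differences was not tested. Between knockout and wild-type NPC, 27.4% of all genes were called, 12.7% lower and 14.7% higher. Postmitotic neuron markers (8 genes) summed to 327 and 343 FPKM in wild-type and to 29.7 and 35.1 FPKM in knockout NPC, with 6 lower and 1 higher of 8 tested. Elavl3 and Elavl4 would not have passed the filter without wild-type NPC, where they are high, and add no support to this count. Mesoderm markers (9 genes) summed to 30.7 and 26.6 against 147 and 128 FPKM, with 7 of 7 tested higher. Endothelium and blood markers (8 genes) summed to 119 and 90.2 against 856 and 1053 FPKM, also with 7 of 7 higher. Tal1 passed the filter only through knockout NPC, where it is high, and adds no support to this count. The globin genes Hba-x, Hbb-bh1 and Hbb-y made up most of the sum in knockout NPC. The highest of the other members there was Pecam1, at 9.79 and 10.4 FPKM. Gata1 was listed at 0 in wild-type NPC. Endoderm markers (7 genes) summed to 18.4 and 13.9 against 57.1 and 47.5 FPKM, with 3 higher and 1 lower of 5 tested. Of these, Sox17 passed the filter only through wild-type NPC. Feeder fibroblast markers (9 genes) summed to 100.2 and 113 against 85.1 and 73.2 FPKM, with 6 of 9 lower, and to 0.924 to 1.65 FPKM in ESC. Lum, Dcn, Postn and Thy1 would not have passed the filter without wild-type NPC, where they are high, and add no support to this count.

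Genes whose level followed the HoxA genes most closely over the 8 libraries were named by Pearson's r of log2(FPKM + 1) among 9832 genes, as a description. The libraries fall into ESC and NPC, so r mostly reflects the stage. The genes were picked for sharing the pattern of a profile, so their levels in the NPC groups are no separate result. For the mean of Hoxa6 to Hoxa10 they were Snap25, Fndc5, Ank2, Nell2 and Zfp811 (r = 0.998 to 0.999). Snap25, a component of the synaptic release machinery, averaged 10.7 FPKM in wild-type and 1.18 FPKM in knockout NPC, and Nell2, a secreted protein of neurons, 17.2 and 1.51 FPKM. For the mean of Hoxa2 to Hoxa5 they were Dchs1, Rap1gds1, Zfp703, Gm3558 and Pogk (r of at least 0.999), all at like levels in the 2 NPC groups, such as Zfp703 at 40.0 and 39.2 FPKM. For Hotairm1 they were Phf21a, 2610005L07Rik, Ip6k1, Aak1 and Pfn2 (r = 0.997 to 0.999). An r above 0.95 was reached by 1863 genes for Hoxa2 to Hoxa5 and 1630 for Hotairm1 but by 305 for Hoxa6 to Hoxa10.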

How the data were processed

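Each table holds FPKM per gene as deposited, 24854 entries with 24318 symbols, with a 95% confidence interval and no counts. Reads were aligned to mm9 with TopHat2 2.1.1 and gene levels estimated by the authors with Cufflinks 2.2.1, per the submitters' processing notes. From the tables, 285 symbols with several entries were summed and 12 with a failed estimate left out. Fragments were inferred from the intervals, taken as 2 SD above the estimate. Among entries with a single start site and below 5 fragments, 62.2% to 66.4% of these numbers per library were within 0.05 of a whole number. Entries with several start sites, such as Hoxa10, were left out of that check. The start positions in the tables count from 0 and were moved to count from 1.

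The 13318 genes that reached an FPKM of 1 in 2 or more libraries entered a two-sided limma fit (version 3.58.1, R 4.3.3) of log2(FPKM + 1). The fit had a mean per group, a trend in the variance and 4 degrees of freedom left. Adjustment was by Benjamini-Hochberg in each contrast, and a gene was called under 0.05. This scale understates changes of low genes. The code was tested on simulated data. Promoter sequences are RefSeq's.

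Named are all 9 genes, Dcaf7, the other genes of the locus (1 is not reported here), up to 3 paralogs per cluster and 4 per list with the largest change, and 5 genes most like each profile, with FPKM of at least 5 in the highest group. The members and lists were chosen with earlier results of these data known. The alternatives changed the pseudocount (0.1), the filter (none, or 5 FPKM), the scaling (median-ratio or quantile), the entry used per symbol (the highest) and the libraries fitted (only the groups compared, or each library left out), or added the replicate block.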

Additional observations from a re-analysis of the deposited data

Results flagged for a closer look

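The test of the difference between the knockout effects at the 2 stages called 4 genes. The knockout effect in NPC minus that in ESC was -3.01 for Hoxa6, -2.17 for Hoxa7, -1.46 for Hoxa9 and -0.73 for Hoxa3 on the log2 scale of FPKM + 1, with limma adjusted p = 0.00127, 0.00162, 0.00156 and 0.0131. In ESC these genes had at most 16 fragments in a library, so the ESC side of each difference rests on few fragments. The 8 coding genes lay between 0 and 0.852 FPKM there, which leaves little room for a knockout effect in ESC on this scale. Each value therefore largely restates the change in NPC. Hoxa9 passed the filter only through wild-type NPC. The call of Hoxa6 was lost with a pseudocount of 0.1 (limma adjusted p = 0.129).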

How the results depend on the processing

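Of 617 values of single genes under the alternatives, 589 kept their direction and side of the threshold, 13 lost a call, 4 gained one and 11 changed sign. The calls of Hoxa3, Hoxa6 and Hoxa7 in knockout against wild-type NPC held in each of the 16 alternatives, and that of Hoxa9 in the 13 in which it was tested. With each library left out in turn, 3 to 5 genes were called in that contrast (5 in the main analysis), 0 to 1 in ESC (0) and 2 to 6 for the difference between stages (4). Over these fits the ESC difference ran from -1.44 to 0.59 for Hotairm1, -0.13 to 0.039 for Hoxa2, -0.30 to 0.23 for Hoxa4, -0.48 to 0.10 for Hoxa5, -0.37 to 0.12 for Hoxa6 and -0.011 to 0.29 for Hoxa7, and the difference between stages from -0.88 to 1.14 for Hotairm1. That of Hoxa2 was 0.10 with a pseudocount of 0.1. The cause was not tested. Among all genes, calls in ESC numbered 33, but 3 with only the groups compared and 8 to 26 with a library left out, those in NPC 3648 but 1994 to 3369, and those for the difference 2237 but 1072 to 1480. The replicate numbers were not shown to pair libraries (correlations of deviations -0.05 to 0.18). With the replicate block the genes called were 0 in ESC, 5 in NPC and 4 for the difference, with 8 and 7 between stages, as without it, and 15 of all genes in ESC. Depth limits the ESC values, of 0 to 16 fragments.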
